A study of Mus musculus with 3 samples.

Results

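The Hedgehog pathway was represented by 9 genes, namely the ligand Shh, the receptors Ptch1 and Smo, the co-receptors Boc and Gas1, the inhibitor Hhip and the transcription factors Gli1, Gli2 and Gli3. Their members were all non-control probes that carry one of these gene names in the scanner files, which gave 9 of the 19757 named genes and 17 of the 41174 probes of the array. Kidney rudiments of C57BL/6 Fgfrl1-/- embryos were compared with rudiments of C57BL/6 wildtype embryos at E12.5. Both genotypes were taken from littermates, and each RNA pool held 6 to 9 rudiments. On each of 3 Agilent arrays, 1 Fgfrl1-/- pool labelled with Cy3 was hybridized together with 1 wildtype pool labelled with Cy5. Dye swaps were made on 0 arrays, and dye and genotype therefore cannot be told apart.

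In the Hedgehog pathway, Ptch1 holds Smo inactive until a ligand such as Shh binds to Ptch1. Active Smo moves into the primary cilium and changes the Gli factors from repressors to activators, and Gli1, Ptch1 and Hhip are themselves common targets of the activated pathway. In the embryonic kidney, Shh is known from the epithelium of the ureter and medullary collecting ducts, whereas the surrounding mesenchyme responds to it. The repressor form of Gli3 is known to affect genes of the ureteric bud and the nephrogenic mesenchyme.

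Below are the starting bases of the array probes on which the results turn, to show which stretch of each transcript was measured. They are the first 30 of 60 bases, as given in the scanner file of array 1, in lower case throughout because no base is singled out.
Shh: aatttattattgtgtgaactgtactcacag
Smo: aatgtctagtcattttcatagtgccccaca
Boc: tgctgtttaggtcttgtaccagttgaagaa
Gli1: ccgggtgctgcctatagccagtgtcctcga
Gli2: aggcattgattcttggactttgaggaactc
Gli3: tgttctcctctgacaagttacgcttgtata
On the mouse build mm8, which the files use, the Shh probe lies on the minus strand at chr5:28788230-28788289 and the Smo probe on the plus strand at chr6:29711235-29711294. The Boc probe lies on the minus strand at chr16:44405064-44405123 and the Gli1 probe on the minus strand at chr10:126733884-126733943. The Gli2 probe lies on the minus strand at chr1:120662224-120662283 and the Gli3 probe on the plus strand at chr13:15520556-15520615. An mm8 annotation was not used here, so that exon and UTR are not given. The Shh and Gli2 probes hold a stop codon in every forward reading frame, that is 0 open frames, and cannot lie wholly within coding sequence.

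Of the genes in the table of promoters, Gli2 and Smo were higher in the Fgfrl1-/- pool on all 3 arrays with at least 1 probe, and the 250 bases before their starts are shown for this reason. The sequences are from RefSeq, assembly GRCm38.p6. Capitals mark the core GGGTGG of the Gli binding motif and its reverse complement CCACCC.
Gli2: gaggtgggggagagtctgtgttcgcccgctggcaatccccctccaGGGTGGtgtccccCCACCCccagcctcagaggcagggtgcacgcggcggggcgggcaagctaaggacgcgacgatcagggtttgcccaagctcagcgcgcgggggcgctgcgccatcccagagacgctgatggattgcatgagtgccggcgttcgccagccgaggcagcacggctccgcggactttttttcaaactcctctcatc
Smo: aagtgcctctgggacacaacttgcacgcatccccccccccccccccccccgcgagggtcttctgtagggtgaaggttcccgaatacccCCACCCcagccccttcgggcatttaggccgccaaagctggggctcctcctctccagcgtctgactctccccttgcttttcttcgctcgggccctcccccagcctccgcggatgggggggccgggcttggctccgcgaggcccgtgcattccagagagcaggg
The Gli2 stretch spans chr1:119053620-119053869 on the minus strand and the Smo stretch chr6:29735247-29735496 on the plus strand of GRCm38.p6. Searched on both strands, the core was found in 4 of the 6 members with an entry, namely Gli2, Gli3, Hhip and Smo, and in 28.08% of 32851 windows of the same length. The longer consensus TGGGTGGTC, which contains the core, was found in 0 of the 6 members and in 0.2253% of the windows. A match describes letters only.

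Boc and Gli1 had the smallest p-values among the 9 genes, and both were higher in the Fgfrl1-/- kidneys on all 3 arrays, by 1.42-fold and 1.39-fold. Gli2 and Smo were also higher on all 3 arrays with their brightest probes, whereas Gli3 was lower on all 3. Shh, Ptch1, Gas1 and Hhip did not keep a direction across the arrays. At an adjusted p below 0.05 in limma's test over all probes, 0 of the 17 member probes passed, where 0.687% of all probes passed. At an unadjusted p below 0.05 there were 5 member probes beside 15.9% of all probes, 4 of them higher (7.69% of all probes) and 1 lower (8.20%). When each gene was represented by its brightest probe and tested over 19757 genes, Gli1 (adjusted p = 0.0313) and Boc (adjusted p = 0.0336) passed, and 1.96% of all genes passed in the same direction. With all probes averaged per gene, Gli1 alone of the 9 passed (adjusted p = 0.0234), beside 1.75% of all genes in that direction. With slide as a fixed block, 5 member probes passed, those of Boc, Gas1, Gli1, Gli2 and Smo, but so did 25.0% of all probes.

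Counted by array, 5 of the 17 member probes were higher on all 3 arrays and 1 was lower, where 19.0% of all probes were higher and 19.2% lower on all 3. The 3 Fgfrl1-/- levels lay above all 3 wildtype levels for 3 member probes, beside 6.80% of all probes, and below them for 0 member probes, beside 7.25%. The mean ratio was above 0 for 15 of the 17, as for 51.2% of all probes. The median log2 ratio of the 17 probes was 0.15, that of all probes 0.00. Of the 17, 14 were well above background in at least 1 channel of 1 array. The plot of ratios by array gives these 14.

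**Figure D1:**
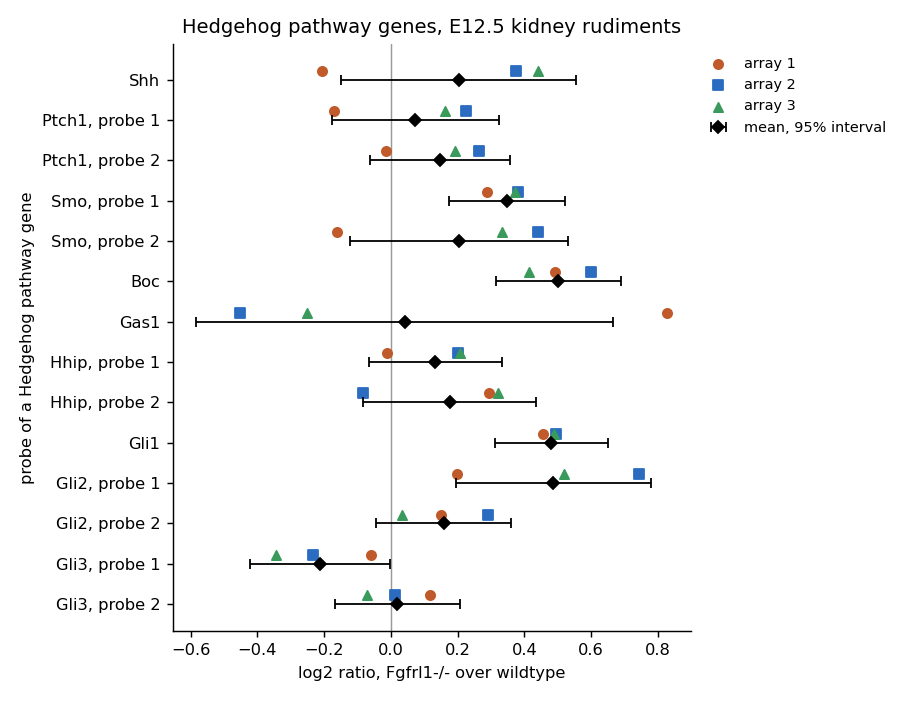
The horizontal axis gives the log2 ratio of Fgfrl1-/- over wildtype for the 14 member probes that were above background in at least 1 channel of 1 array. Coloured symbols are the 3 arrays, and the black diamond is their mean with its 95% interval from limma. Probe 1 is the brighter probe of a gene. The interval lies above 0 for Boc, Gli1, the brighter Gli2 probe and the brighter Smo probe, and the points of Gas1 spread from -0.45 to 0.83.

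All levels below are channel intensities after normalization and contain the offset of 50 that was added after background correction, and the ratio of a dim probe is therefore drawn towards 0. Levels can be compared between arrays for 1 probe but not between probes. Fgfrl1 itself, whose probe checks the labels, fell by 1.52 on the log2 scale (adjusted p = 0.0332), with levels from 294 to 609 in the Fgfrl1-/- pools and from 846 to 1413 in the wildtype pools. Array 1 lay on another slide than arrays 2 and 3 and was read with an earlier software version. Across probes, which are not independent, the ratios of array 1 correlated with those of arrays 2 and 3 with a Pearson's r of 0.11 and 0.22, those of arrays 2 and 3 with 0.71. In such bulk RNA, fewer cells of a type and less RNA per cell cannot be told apart.

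Shh, the secreted ligand, had a level of 106, 154 and 152 in the Fgfrl1-/- pools of arrays 1, 2 and 3 and of 122, 119 and 112 in the wildtype pools. The Fgfrl1-/- pool was thus the lower one on array 1 and the higher one on the other arrays, and the groups overlapped. The log2 ratios were -0.21, 0.37 and 0.44, with a mean of 0.20 (SD 0.36, n = 3; 95% interval -0.15 to 0.56; adjusted p = 0.574). This probe is printed 10 times on an array, and its replicate spots differed in sign between array 1 and the others. On array 1, 2 of the 10 spots were above 0, with a range from -0.51 to 0.07. On array 2 all 10 spots were above 0 (0.19 to 0.48), as were all 9 usable spots of array 3 (0.22 to 0.60). Without array 1, the mean was 0.41 (adjusted p = 0.00225). In that fit 18.6% of all probes passed, where the remaining arrays share a slide. This share and limit hold for every value without array 1 given below.

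Ptch1, the receptor of Shh, had 2 probes, which lie 2549 bases apart. The brighter one had levels of 129, 129 and 141 in the Fgfrl1-/- pools and of 145, 110.2 and 126 in the wildtype pools, and the groups overlapped. Its log2 ratios were -0.17, 0.23 and 0.16 (mean 0.07, SD 0.21, n = 3; 95% interval -0.18 to 0.32; adjusted p = 0.806). As for Shh, array 1 lay below 0 and the other arrays above it. The share of all probes with this order was not computed, and array 1 stood apart over all probes as given above. The dimmer probe, printed 10 times, had levels of 87.4, 97.6 and 96.1 against 88.3, 81.3 and 84.1. Its log2 ratios of -0.01, 0.26 and 0.19 averaged 0.15 (SD 0.14, n = 3; adjusted p = 0.484). All 10 of its spots were above 0 on arrays 2 and 3, and 5 of 9 on array 1. Without array 1, the dimmer probe passed with a mean of 0.23 (adjusted p = 0.0478), while the brighter one had 0.19 (adjusted p = 0.0873).

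**Figure D2:**
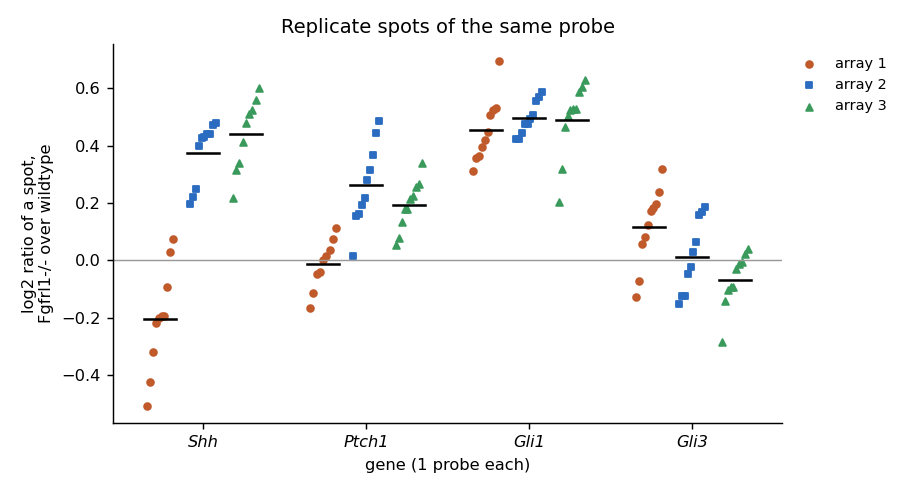
Each symbol is the log2 ratio of Fgfrl1-/- over wildtype of 1 spot, for the 4 member probes that are printed 10 times on an array, and black lines are the means of the spots of an array. The Gli1 spots lie above 0 on every array, whereas the Shh spots of array 1 lie mostly below 0 and those of the other arrays above it.

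Smo, the membrane protein that passes the signal on, had 3 probes. With the brightest one, the Fgfrl1-/- levels were 21429, 21715 and 19798 and the wildtype levels 17549, 16664 and 15296, so that every Fgfrl1-/- pool lay above every wildtype pool. The log2 ratios were 0.29, 0.38 and 0.37 (mean 0.35, SD 0.05, n = 3; 95% interval 0.17 to 0.52; adjusted p = 0.100). With median centring instead of loess, the mean was -0.14. The second probe, whose listed mm8 interval spans 1234 bases, had levels of 219, 201 and 223 against 245, 148 and 177 in the wildtype. Its log2 ratios were -0.16, 0.44 and 0.33 (mean 0.20, adjusted p = 0.540), which put array 1 apart as for Shh. Without array 1 both probes passed, with means of 0.38 (adjusted p = 0.00343) and 0.39 (adjusted p = 0.00335). The third probe stayed at background in both pools on all 3 arrays.

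Boc, a co-receptor that presents the ligand to Ptch1, had levels of 2296, 2012 and 2004 in the Fgfrl1-/- pools and of 1632, 1327 and 1504 in the wildtype pools. The groups did not overlap. The log2 ratios of 0.49, 0.60 and 0.41 gave a mean of 0.50 (SD 0.09, n = 3; 95% interval 0.32 to 0.69; adjusted p = 0.0661). Centring on the median lowered the mean to 0.22, and array 1 alone did not set it, since the mean was 0.51 without array 1 (adjusted p = 0.000789). The other 2 Boc probes stayed at background in both pools on all 3 arrays, and a mean over all 3 probes was 0.18.

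Gas1, another co-receptor, had the widest spread of the 17 probes. Its levels were 4632, 4275 and 4362 in the Fgfrl1-/- pools but 2609, 5852 and 5190.0 in the wildtype pools, so that the wildtype pool of array 1 stood apart. The log2 ratios were 0.83, -0.45 and -0.25, with a mean of 0.04 (SD 0.69, n = 3; 95% interval -0.58 to 0.67; adjusted p = 0.967). Without array 1 the mean was -0.35 (adjusted p = 0.00772), the opposite direction. Gas1 thus differed from Shh, Ptch1 and the second Smo probe, for which array 1 was the lowest of the 3.

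Hhip, which binds ligands at the cell surface and so limits the pathway, was near background with both probes. The first had levels of 85.4, 94.7 and 89.3 in the Fgfrl1-/- pools, all well above background, and of 86.0, 82.3 and 77.4 in the wildtype pools, none well above background. Its log2 ratios on the arrays were -0.01, 0.20 and 0.21 (mean 0.13, SD 0.12, n = 3; 95% interval -0.07 to 0.33; adjusted p = 0.510), where the wildtype level is no more than an upper limit. The second probe was well above background in 2 Fgfrl1-/- pools and 0 wildtype pools. Its log2 ratios were 0.29, -0.08 and 0.32 (mean 0.18, SD 0.23, n = 3; 95% interval -0.08 to 0.44; adjusted p = 0.499). The levels of the groups overlapped for both probes.

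Gli1, an activator that is itself switched on by the pathway, had the most even ratio of the members. The levels were 204, 142 and 147 in the Fgfrl1-/- pools and 149, 101 and 104.7 in the wildtype pools. The wildtype level of array 1 exceeded the Fgfrl1-/- levels of the other arrays, but within each array the Fgfrl1-/- pool was higher. The log2 ratios were 0.46, 0.50 and 0.49, with a mean of 0.48 (SD 0.02, n = 3; 95% interval 0.31 to 0.65; adjusted p = 0.0598). All 10 spots lay above 0 on each of the 3 arrays, with a lowest spot of 0.20 and a highest of 0.69. The size of this ratio depended on the background correction, since it was 0.78 with an offset of 0 and 0.98 with the ratios of the scanner software, without passing the test in either case. Without array 1 it was 0.49 (adjusted p = 0.000644).

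Gli2, the main activator of the family, had 2 probes 1524 bases apart. With the brighter one, the Fgfrl1-/- levels were 806, 599 and 527 and the wildtype levels 703, 358 and 368. Array 1 had the highest levels in both channels and the groups overlapped. The log2 ratios were 0.20, 0.74 and 0.52 (mean 0.49, SD 0.27, n = 3; 95% interval 0.19 to 0.78; adjusted p = 0.133). The dimmer probe had levels of 89.7, 90.9 and 81.3 against 80.9, 74.4 and 79.5, which did not overlap. Its log2 ratios of 0.15, 0.29 and 0.03 averaged 0.16 (adjusted p = 0.433), and both probes were thus higher on all 3 arrays. Without array 1, the brighter probe had a mean of 0.63 (adjusted p = 0.000215) and the dimmer one of 0.16 (adjusted p = 0.202).

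Gli3, the main repressor of the family, went in the other direction with its brighter probe. The levels were 2013, 2118 and 2175 in the Fgfrl1-/- pools and 2097, 2493 and 2761 in the wildtype pools, which overlapped at the wildtype pool of array 1. The log2 ratios were -0.06, -0.23 and -0.34 (mean -0.21, SD 0.14, n = 3; 95% interval -0.42 to -0.0033; adjusted p = 0.308). Centring on the median gave -0.52 (adjusted p = 0.392), and leaving out array 1 gave -0.29 (adjusted p = 0.0168). The dimmer probe lies 2714 bases away, is printed 10 times, and was well above background in 1 Fgfrl1-/- pool and 1 wildtype pool. Its log2 ratios were 0.12, 0.01 and -0.07 (mean 0.02, adjusted p = 0.944), so that the lower value of the brighter probe was not seen with this one.

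**Figure D3:**
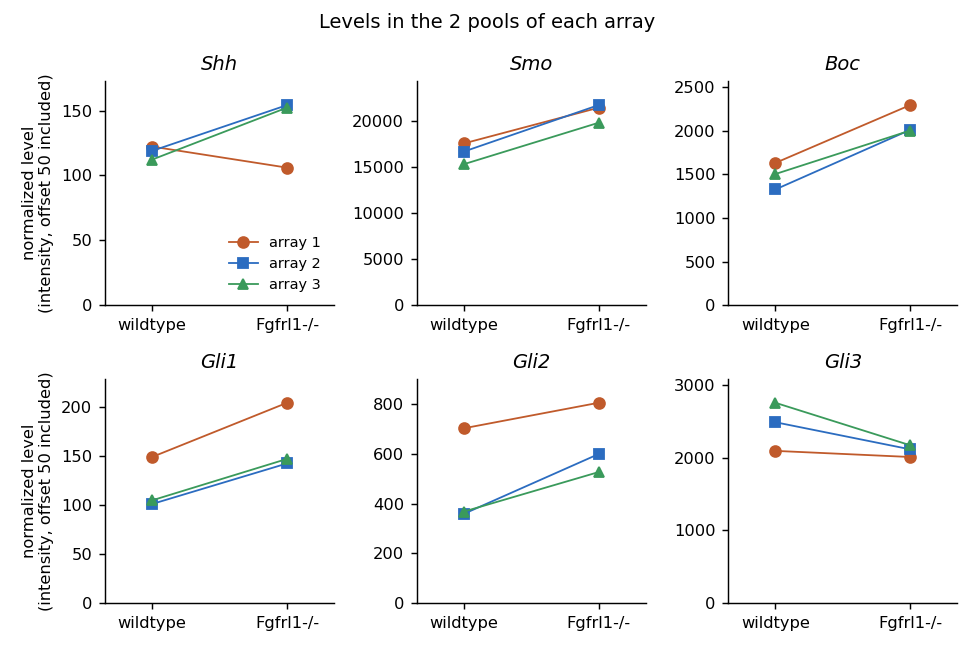
Vertical axes start at 0 and give the normalized level (intensity with the offset of 50) of 6 members, each with its brightest probe and on its own scale, and lines join the 2 pools of an array. The lines of Smo, Boc, Gli1 and Gli2 go up from wildtype to Fgfrl1-/- on all 3 arrays, those of Gli3 go down, and the Shh line of array 1 goes against the other arrays.

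Beside the 9 members, 55 other genes of the pathway, chosen by role, had 121 probes. Of these probes, 3 passed the test as higher and 2 as lower, where 0.289% of all probes were higher and 0.398% lower. Scube1, which codes for a secreted protein of a family that releases Hedgehog ligands from cells, was higher with 2 of its 3 probes. Its brightest probe had levels of 1802, 1509 and 1538 against 1069, 928 and 916 in the wildtype, without overlap, and rose by 0.73 on the log2 scale (SD 0.03, n = 3; adjusted p = 0.0354). The second rose by 0.54 (adjusted p = 0.0473), and the third had 0.23 (adjusted p = 0.410), with -0.06 on array 1.

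Of the 8 genes for ligands and their release, Scube1 was the one with a passing probe. Dhh, another ligand, had a log2 ratio of -0.17 (adjusted p = 0.317). Of the 6 genes of reception, 0 had a passing probe, and 5 of their 13 probes had an unadjusted p below 0.05 (3 higher and 2 lower, beside 7.69% and 8.20% of all probes). Lrp2, an endocytic receptor that also binds Shh, had the largest difference of a brightest probe there, with -0.36 (adjusted p = 0.100). With its probes averaged, the value was -0.14 (adjusted p = 0.336).

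The 18 genes of transduction inside the cell had 43 probes, of which 0 passed, with 8 at an unadjusted p below 0.05, where 15.9% of all probes were below it. Gnas, which codes for the stimulatory G protein subunit that raises cAMP, had the largest difference of a brightest probe. Its log2 ratios were 0.21, 0.76 and 0.46 (mean 0.48, adjusted p = 0.138), and with its probes averaged the mean was 0.21 (adjusted p = 0.130). Sufu, a cytoplasmic inhibitor of the Gli factors, had 0.17 (adjusted p = 0.315). Of the 28 probes of 8 cilium genes, 0 passed, with 6 at an unadjusted p below 0.05, beside the same 15.9%. Ift52, a part of the intraflagellar transport complex, had 0.35 with its brightest probe (adjusted p = 0.0968) but -0.02 with another (adjusted p = 0.945).

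Among the listed target genes, 1 of 17 probes passed as higher, where 0.289% of all probes did. This probe belongs to Rab34, a small GTPase gene. It had levels of 11272, 9501 and 9258 in the Fgfrl1-/- pools and of 7614, 6498 and 6364 in the wildtype pools. These did not overlap, and the probe rose by 0.55 (SD 0.01, n = 3; adjusted p = 0.0443), although centring on the median left 0.14. A second Rab34 probe had 0.29 (adjusted p = 0.307), and the third was not well above background. Foxf1 and Nkx2-2, targets in other tissues, were not well above background with their brightest probes.

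Lower genes were found among 5 kidney genes that were listed for a link to Gli3, namely Pax2, Sall1, Mycn, Ret and Wnt11. A part of the Gli3 repressor in their levels was not tested. Of their 6 probes, 2 passed and both were lower, where 0.398% of all probes passed as lower. Wnt11 and Ret are also among the ureteric tip markers counted below. Mycn, a transcription factor of dividing progenitors, had levels of 2331, 2341 and 2509 against 3634, 5031 and 4657 in the wildtype. It fell by 0.88 on the log2 scale (SD 0.23, n = 3; adjusted p = 0.0439). With -0.50, the other Mycn probe did not pass (adjusted p = 0.113). Wnt11, a ligand made by ureteric tips, had 698, 701 and 674 against 1078, 1207 and 1243 and fell by 0.76 (SD 0.13, n = 3; adjusted p = 0.0408). Pax2 and Sall1 had -0.08 and -0.11 (adjusted p = 0.775 and 0.779), and Ret was not well above background. None of the passing probes of Scube1, Rab34, Mycn and Wnt11 passed without array 2 or without array 3, where 0 probes of the whole array passed.

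**Figure D4:**
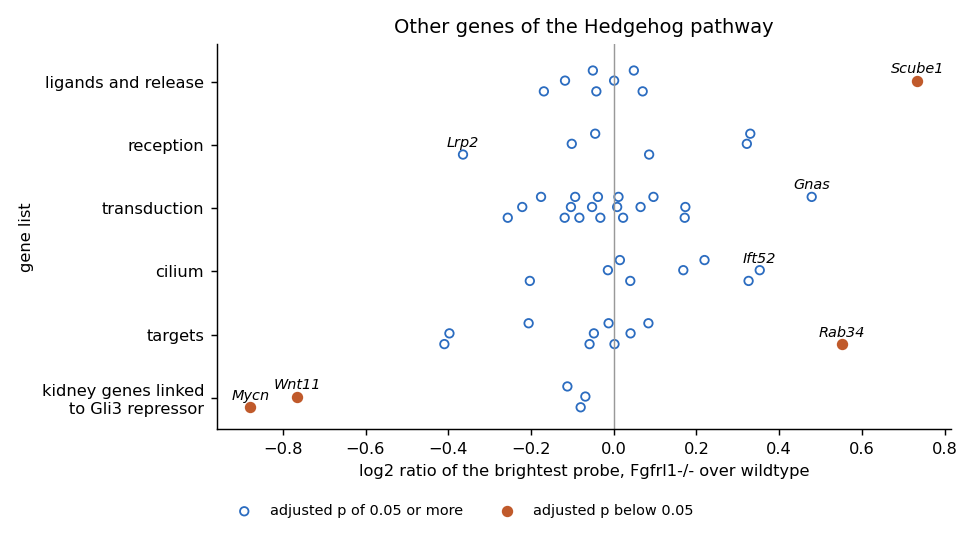
Each circle is the log2 ratio of Fgfrl1-/- over wildtype of the brightest probe of 1 gene, in rows by role in the pathway. Filled circles passed limma's test at an adjusted p below 0.05, and vertical position within a row has no meaning. Scube1 and Rab34 lie at 0.73 and 0.55, Mycn and Wnt11 at -0.88 and -0.76, and most genes of transduction lie near 0.

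Markers of the cell types that make or receive the signal were counted in the same way. Of 8 genes listed for the ureteric stalk, 7 were higher and 1 lower on all 3 arrays with their brightest probe. They were Calb1, Wnt7b, Wnt9b, Hoxb7, Gata3, Krt8, Krt18 and Cdh1. The paper saw Calb1 in the ureteric bud and in structures derived from it. The list is therefore not confined to the stalk. Hoxb7 was the lower one (-0.12, adjusted p = 0.501), and Krt8 passed with its dimmer probe (0.83, adjusted p = 0.0416). The summed level of these 8 genes was 41214 to 52419 in the Fgfrl1-/- pools and 33399 to 37830.0 in the wildtype pools. Such a sum is set mostly by the brightest probes of a list. Of 4 markers of the ureteric tip, 3 were lower and 1 higher on all 3 arrays with their brightest probes, with sums of 2902 to 3918 against 3304 to 3481. The lower ones were Wnt11, described above, Etv5 (-0.42, adjusted p = 0.143) and Ret, which was not well above background, while Sox9 had 0.30 (adjusted p = 0.317). Of 9 stromal markers, 6 were higher and 2 lower on all 3 arrays with their brightest probe, with sums of 134613 to 162805 against 98538 to 101106. Of these sums, the Col1a1 probe alone held 43881 to 63428 and 27808 to 32916. Pdgfra and Col1a1 passed with 1.02 and 0.84, and Foxd1 passed with its dimmer probe (0.78) but not with its brightest (0.90, adjusted p = 0.0570). The lower ones were Tcf21 (-0.48, adjusted p = 0.127) and Rarb (-0.06, adjusted p = 0.783), and Pdgfrb had -0.25 (adjusted p = 0.344). Among all genes, 22.6% were higher on all 3 arrays. By qPCR at E12.5, the paper found Col1a1 unchanged. Of the transcripts raised on its arrays that the paper retested at this stage, none was higher by qPCR. The ureteric mesenchyme responds to Shh in the ureter. With their brightest probes, 0 of its 7 markers were higher or lower on all 3 arrays, with sums of 8268 to 16695 and 8260.3 to 18841. Of all 16 probes of these markers, 3 were higher and 0 lower on all 3 arrays, beside 19.0% and 19.2% of all probes.

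Markers of the renal vesicle were lower on all 3 arrays for 7 of 7 genes with their brightest probes (1742 to 2716 against 6105 to 6612). Wnt4, Fgf8, Lhx1, Dll1 and Bmp2 passed, with -2.40, -2.05, -1.72, -1.08 and -0.88 for these probes. Among all genes, 20.6% were lower on all 3 arrays. All 7 markers are among the genes that the paper lists as lowered on these same arrays, so their direction was known beforehand. Of 7 cap mesenchyme markers, 4 were lower on all 3 arrays with their brightest probes, and Cited1 and Gdnf passed with -0.78 and -0.83. Six2, Osr1 and Sall1 did not keep a direction across the arrays, with -0.05, 0.05 and -0.11 for these probes. The paper describes Six2 and Eya1 as barely affected on these arrays. Gdnf is in the same list of the paper. All 4 macrophage markers were higher on all 3 arrays with their brightest probes (1315 to 1819.9 against 1001 to 1152), beside 22.6% of all genes. Of their 10 probes, 0 passed and 6 were higher at an unadjusted p below 0.05, beside 7.69% of all probes. Of the gut endoderm markers, Cdx1, Cdx2 and Foxa1 were not well above background, nor was Upk3a of the urothelium. The part that these cell types had in the differences of Boc, Gli1, Gli2, Smo, Scube1, Mycn and Wnt11 was not tested.

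**Figure D5:**
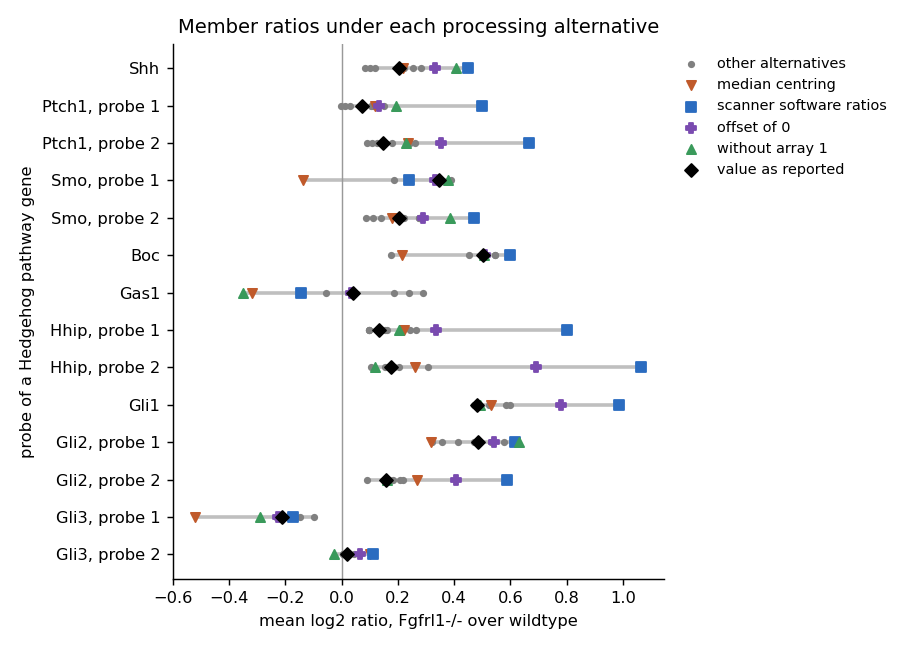
The horizontal axis gives the mean log2 ratio of Fgfrl1-/- over wildtype for the 14 member probes above background, as reported (black diamond) and under each alternative way of processing (other symbols), and grey lines span their range. Gli1 stays between 0.47 and 0.98, whereas the bright Smo probe turns to -0.14 under median centring and Gas1 spans -0.35 to 0.29.

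The plot of members under each alternative shows that Boc, Gli1, both Gli2 probes, both Hhip probes, Shh, the dimmer Ptch1 probe and the second Smo probe kept a ratio above 0, and the brighter Gli3 probe a ratio below 0, in every alternative that was run. The bright Smo probe, the brighter Ptch1 probe, Gas1 and the dimmer Gli3 probe changed sign in at least 1 of them.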

How the data were processed

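The 9 genes and all lists were chosen with earlier results of these data known. The authors deposited the scanner files of each array, written by Agilent Feature Extraction (array 1 by 9.5.3.1, the other arrays by 10.5.1.1, per the file headers, and 10 in the submitters' processing notes), with raw median intensity per spot and channel, processed signals and the log10 ratio of wildtype over Fgfrl1-/-. A second deposited file holds the authors' log2 ratios, whose steps are not given in the sources used here. Its direction, Fgfrl1-/- over wildtype, was found from its Pearson's r of -0.70 to -0.72 with the scanner ratios, and its medians were -0.018, 0.00 and 0.003 on arrays 1, 2 and 3.

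In limma 3.58.1 (R 4.3.3), medians were background-corrected (normexp, offset 50) and normalized by loess, flagged outlier spots (107, 113 and 138) were left out, and spots of a probe were averaged. All 41174 probes were fitted (lmFit with an intercept, eBayes) and tested against 0, 2-sided, with Benjamini-Hochberg adjustment. This step was run on simulated data with independent arrays, which does not cover the shared slide of arrays 2 and 3. Levels are channel intensities after Aquantile scaling. A probe was well above background where at least 0.5 of its spots had that flag, and the flag was set for 57.7% to 80.5% of spots in the Fgfrl1-/- channel and 61.5% to 65.5% in the wildtype channel. No spot was saturated, and 3 arrays limit the precision. p-values measure the spread between these pools.

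Gene names of the 9 members are those in the file of array 1. Other genes were named through RefSeq, assembly GRCm38.p6, for 24375 probes by the first accession, 115 by another, 6234 by symbol and 2391 by an older symbol, and 8059 stayed unnamed. Foxl1, a listed target, was matched to no probe. Named in the text were every member probe, Fgfrl1, of each other list the genes with a passing probe and the one with the largest difference of a brightest probe, and passing markers. Dhh, Sufu, Pax2, Sall1, Ret, Foxf1, Nkx2-2, Etv5, Sox9, Tcf21, Rarb and Pdgfrb were named after their values were seen. The same holds for Six2, Osr1, Eya1 and the genes listed for the ureteric stalk. Alternatives were other background corrections and normalizations, dim probes left out, 1 value per gene, other variance models, separate channels, slide as a block, the second deposited file and leaving out each array.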

Additional observations from a re-analysis of the deposited data

How the results depend on the processing

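Of 41174 probes, 283 passed (119 higher, 164 lower). The count was 0 with an offset of 0 and with the scanner ratios, 93 with median centring (2 higher, 91 lower), 709 with quantile normalization, 41 with dim probes left out, 723 with the brightest probe of a gene, 674 with the mean of its probes, 36 with the authors' table and 10279 with slide as a fixed block. It ranged from 0 to 7666 when each array was left out in turn, the latter without array 1. For the 17 member probes the count of 0 became 2 with the brightest probe (Boc and Gli1) and 1 with the mean of the probes (Gli1). It was 5 with slide as a fixed block (Boc, Gas1, Gli1, Gli2 and Smo, beside 25.0% of all probes). With an array left out it ranged from 0 to 9, the latter without array 1, where 18.6% of all probes passed. For the 121 other pathway probes, the count of 5 became 3 without background subtraction and 1 with median centring. It became 0 with an offset of 0, the scanner ratios, dim probes left out or the authors' table. With slide as a fixed block it was 36, beside 25.0% of all probes. When each array was left out it ranged from 0 to 31, the latter without array 1, beside 18.6% of all probes.

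Signs turned for the bright Smo probe with median centring (-0.14), for the brighter Ptch1 probe without array 2 (-0.0038, with up to 0.19 when another array was left out), for the dimmer Gli3 probe without array 1 (-0.029, up to 0.065 without another), and for Gas1 with the scanner ratios (-0.15), median centring (-0.32), quantile normalization (-0.055) and without array 1 (-0.35, up to 0.29 without another). The cause was not tested. With separate channels and no replicate block, 0 member probes, 295 of all probes and 2 of the other pathway probes passed. In that fit the pairing of the pools of an array was kept through the intraspot correlation of 0.604. Slide as a random block was not run because no correlation could be estimated. Of the recomputed ratios of single probes, 280 kept direction and side of the threshold, 45 no longer passed, 22 passed newly and 7 turned.

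With 3 arrays, of which 1 lies on a slide of its own, the spread within that slide could not be estimated. Levels were not far above the offset of 50 for Shh, Gli1, Hhip, Ptch1 and the dimmer probes of Gli2 and Gli3. This limits the size of a ratio that can be seen.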
